A study of Homo sapiens with 14 samples.

Results

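The ephrins and Eph receptors, a family of cell-surface ligands and their receptors, were followed in human HEK293 cells that carried an introduced HOXD13 or HOXD9 gene. The list held 10 genes (EFNA1, EFNA3, EFNB1, EFNB2, EPHA2, EPHA3, EPHA4, EPHA7, EPHB2 and EPHB4), chosen because Eph genes are known HOX targets in limb. It was made with earlier results of these data known. Each probe set that the array annotation gives to 1 of these genes alone was taken. This gave 20 of the 54675 probe sets on the array, for 9 of the 10 genes. EPHB2 was not analysed here. A probe set, a group of short probes that reads 1 stretch of a transcript, was tested when 3 or more of the 14 arrays gave a log2 value of 5 or above, and 12 probe sets of 7 genes passed this filter out of 19816 that passed in all.

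HEK293 is a cell line from human embryonic kidney. The HOXD13 lines were 1 mixed population of cells transfected with V5-tagged HOXD13 and clones a, b and c picked from it, and their controls were 3 arrays of cells with the V5-tag vector. The HOXD9 lines were a mixed population with HA-tagged HOXD9 and its clones a, b and c, and their controls were 3 arrays of cells with the HA-tag vector. All cells, controls included, had been selected with the antibiotic G418, to which the plasmid gives resistance, and total RNA was labelled for Affymetrix arrays. The sample titles name this selection only for HA vector arrays 2 and 3. The promoter that drives the introduced genes is not given in the sources used here. Because the clones came from the mix, the 4 lines of a HOX gene are not fully independent. The vector arrays are biological replicates by their labels, which say no more of how cultures were kept apart, so p-values measure only the spread between these samples, which may in part be technical. Values are log2 expression after GCRMA, a method that subtracts background by probe sequence and sets arrays to a common distribution, and undetected transcripts lie at about 2. The V5 arrays and the HA arrays had been normalized apart, so levels are set side by side only within a tag. In RNA of whole cultures, fewer expressing cells and less RNA per cell cannot be told apart.

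Eph receptors form a large family of receptor tyrosine kinases, and their ligands, the ephrins, stay bound to the membrane of the neighbouring cell. Class A ephrins are held by a lipid anchor and class B ephrins span the membrane, so that contact between cells sends a forward signal through the receptor and a reverse signal through the ligand. The family is known for cell sorting at tissue boundaries, for axon guidance and for vessel growth, where EFNB2 marks arteries and EPHB4 marks veins. In the mouse, HOXA13 and HOXD13 regulate the Eph receptor gene Epha7 in the distal limb, and EPHA4 steers motor axons as they enter the limb.

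The introduced genes were read in the lines labelled with them. HOXD13 probe set 207397_s_at lay between 12.2 and 12.6 in the HOXD13 lines and between 6.84 and 7.01 on the V5 vector arrays, and HOXD9 probe set 205605_at lay between 6.65 and 7.76 in the HOXD9 lines and between 2.52 and 2.83 on the HA vector arrays. The other HOXD9 probe set, 205604_at, was 4.33 to 4.54 in the HOXD9 lines and 4.20 to 4.24 on the HA vector arrays, and was not called (adjusted p = 0.653). A further HOXD13 probe set, 236681_at, stood at 10.15, 10.23 and 10.42 in the mix and clones a and b, and at 8.87 in clone c, against 8.93 to 8.95 on the V5 vector arrays. Of 9 markers of HEK293, 8 had a probe set and 6 had one past the filter (VIM, KRT18, NEFL, CDH2, KRT8 and INA). PAX2, a transcription factor gene, and NEFM lay below it. None of 8 endothelial markers and none of the 5 leukocyte markers with a probe set passed it, and of 7 fibroblast markers only COL1A1 did. The difference between 3 prime and 5 prime ACTB probe sets, a measure of RNA integrity, was 2.13 in the HOXD13 mix and 2.01, 1.82 and 2.80 in its clones a, b and c, against 2.19 to 2.26 on the V5 vector arrays. It was 2.26 in the HOXD9 mix and 1.70, 2.35 and 2.10 in its clones a, b and c, against 2.29 to 2.37 on the HA vector arrays. The same difference for GAPDH was 0.53, 0.57, 0.56 and 0.86 in the HOXD13 mix and clones a, b and c, against 0.68 to 0.72 with the V5 vector. For GAPDH the HOXD9 lines gave 0.61 to 0.64, against 0.65 to 0.69 with the HA vector. The median SD over tested probe sets was 0.27 among the HOXD13 lines, 0.06 among the V5 vector arrays, 0.28 among the HOXD9 lines and 0.05 among the HA vector arrays.

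In the HOXD13 lines 3 of the 12 probe sets were called higher than on the V5 vector arrays and none was called lower, in limma's test across all 19816 probe sets with Benjamini-Hochberg adjustment at 0.05. The 3 belonged to 2 genes, the ligand EFNB2 with both of its probe sets and the receptor EPHA4 with 1 of 3. Over all probe sets 2.49% were called higher and 6.19% lower in this comparison. Earlier results of these data, known when the list was made, had named EFNB2, so the 3 calls are no independent support. In the HOXD9 lines none of the 12 was called against the HA vector, where 0.0303% of all probe sets were called in either direction. The fit takes 1 estimate of the spread from all 4 groups, so SEs, intervals and p-values also draw on arrays outside the comparison. At an unadjusted p under 0.05, 4 of the 12 passed for HOXD13 and 2 for HOXD9, against 25.1% and 20.6% of all probe sets. The median log2 fold change of the 12 was 0.26 for HOXD13 and 0.14 for HOXD9, against -0.02 and 0.04 over all probe sets tested. Several of the 12 read the same gene, which weights this median toward EPHA4, EFNB2, EPHA7 and EPHB4. With the brightest probe set of each of the 7 genes the medians were 0.10 for HOXD13 and -0.0024 for HOXD9. Over all genes read in this way they were -0.03 and 0.08.

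**Figure D1:**
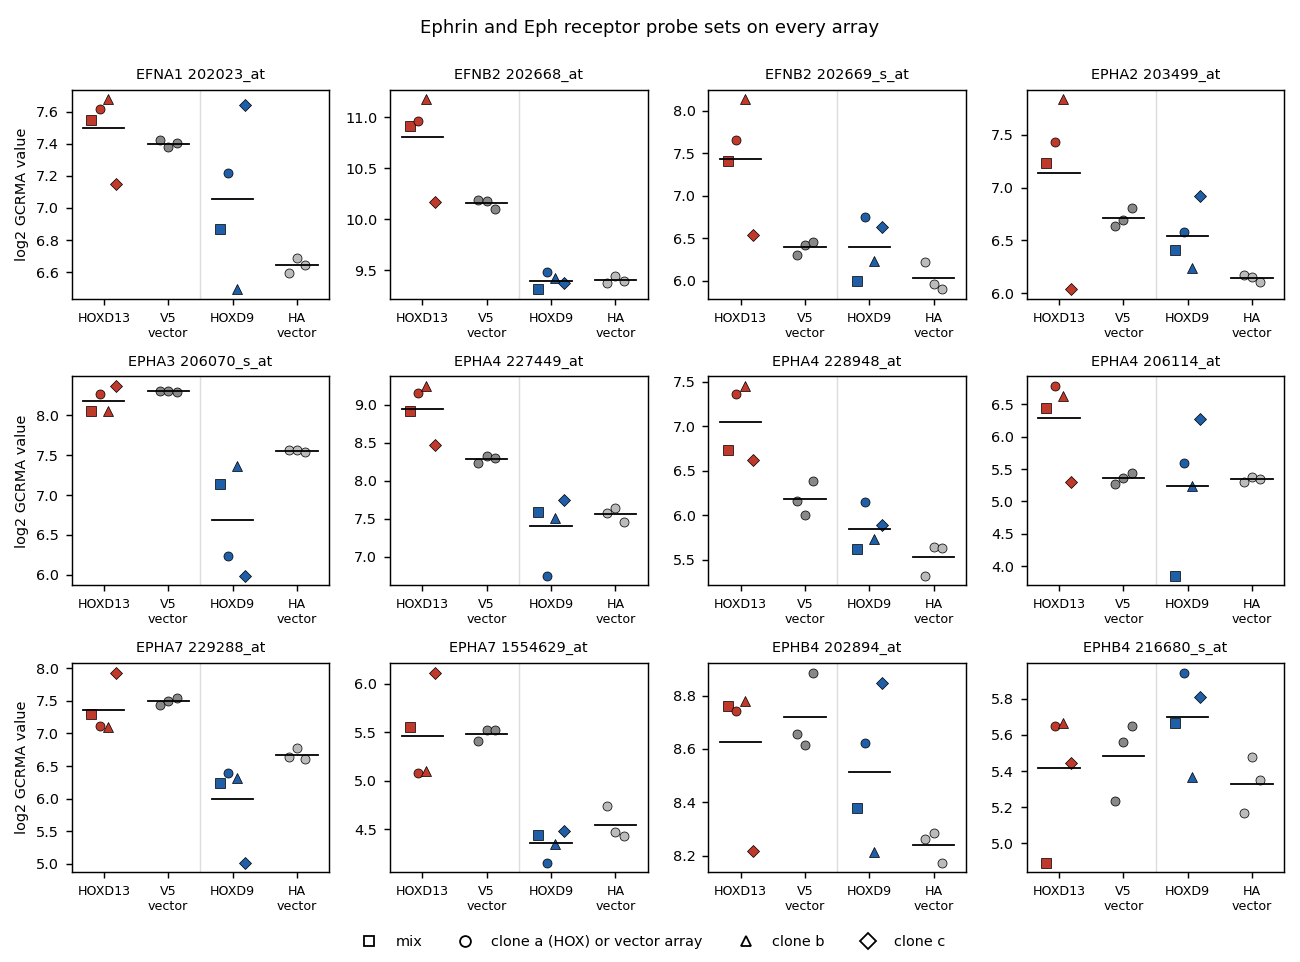
Log2 GCRMA value (y axis) of each of the 12 tested ephrin and Eph receptor probe sets on each of the 14 arrays, with 1 point per array, the marker shape for the line and a horizontal bar for the group mean. The y axes differ between panels. The HOXD13 mix and clones a and b lie above all V5 vector arrays for EFNB2, EPHA2 and EPHA4, and clone c lies near or below the V5 vector arrays for EFNB2 202668_at and EPHA2.

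Among the ligands, EFNB2, the class B ephrin of arteries, rose in the HOXD13 lines. Probe set 202668_at had values of 10.91 in the mix and 10.97, 11.18 and 10.17 in its clones a, b and c, against 10.19, 10.18 and 10.10 on the V5 vector arrays. The mix and clones a and b stood above all vector arrays, while clone c lay within their range, so the groups overlapped. Probe set 202669_s_at had values of 7.41, 7.66, 8.13 and 6.54 in the same order of lines, against 6.31, 6.42 and 6.46 on the vector arrays. All 4 lines were above all 3 vector arrays here, with clone c closest to them. The fitted log2 fold change was 0.65 (SE 0.18, 1.57-fold, adjusted p = 0.0438) for 202668_at and 1.04 (SE 0.29, 2.05-fold, adjusted p = 0.0446) for 202669_s_at. Neither was called with the arrays of the V5 tag alone (adjusted p = 0.144 and 0.124), and with single arrays left out both were called only without HOXD13 clone c, HOXD9 clone a or HOXD9 clone c. Leaving out a HOXD9 line changes the estimate of the spread in this test and not the fold change.

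In the HOXD9 lines EFNB2 202668_at was 9.31 in the mix and 9.48, 9.43 and 9.37 in its clones a, b and c, against 9.37, 9.44 and 9.39 on the HA vector arrays. The 2 groups overlapped, and the fitted difference was -0.0024 with a 95% interval of -0.39 to 0.39 (adjusted p = 0.994). The SE behind this interval, 0.18, takes in the spread of the HOXD13 lines, and it was 0.10 with the arrays of the HA tag alone. Probe set 202669_s_at was 5.99, 6.75, 6.24 and 6.63 in the HOXD9 lines, against 6.23, 5.96 and 5.90 with the HA vector. It lay above the vector arrays in clones a, b and c, by a fitted 0.37 (adjusted p = 0.440).

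EFNA1, a class A ligand that binds EPHA2 among other receptors, did not pass the test for either HOX gene. It was 7.55, 7.62, 7.68 and 7.15 in the HOXD13 mix and clones a, b and c, against 7.42, 7.38 and 7.41 with the V5 vector. Clone c was below all vector arrays and the other 3 lines were above them, and the fitted difference was 0.10 (95% interval -0.37 to 0.56, adjusted p = 0.834). In the HOXD9 mix and clones a, b and c it was 6.87, 7.22, 6.49 and 7.64, against 6.60, 6.69 and 6.64 with the HA vector. The mix and clones a and c were above the vector arrays and clone b was below them, with a fitted difference of 0.41 (95% interval -0.05 to 0.88, adjusted p = 0.279). The other listed ligands were not tested. EFNA3, a further class A ephrin, ranged from 4.08 to 5.08 and reached 5 on 1 array, HOXD9 clone c. EFNB1, a class B ephrin whose loss causes craniofrontonasal syndrome in humans, stayed between 2.19 and 2.62 near the floor on every array.

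EPHA4 was the receptor called for HOXD13. This receptor binds ephrins of both classes. Its probe set 228948_at had values of 6.73 in the mix and 7.36, 7.45 and 6.62 in its clones a, b and c, against 6.15, 6.0 and 6.39 with the V5 vector. All 4 lines were above all 3 vector arrays, and the log2 fold change was 0.86 (SE 0.21, 1.82-fold, adjusted p = 0.0250). It was not called with the arrays of the V5 tag alone (adjusted p = 0.0829), nor without HOXD13 clone a or b or any 1 of the V5 vector arrays (adjusted p = 0.0622 to 0.122).

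The brightest EPHA4 probe set, 227449_at, had values of 8.91, 9.15, 9.24 and 8.46, against 8.23, 8.33 and 8.29 with the V5 vector. The groups did not overlap, but the difference of 0.66 (SE 0.22) did not pass the threshold (adjusted p = 0.0862). Probe set 206114_at was 6.45, 6.79 and 6.63 in the mix and clones a and b and 5.30 in clone c, against 5.26, 5.36 and 5.45, and its difference of 0.94 (SE 0.46) was not called either (adjusted p = 0.221). Clone c alone lay within the vector range for that probe set. The remaining EPHA4 probe sets were below the filter, with 229374_at between 2.43 and 4.33 and 238671_at between 2.17 and 2.22.

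In HOXD9 lines the 3 EPHA4 probe sets did not move together. Probe set 227449_at was 7.58 in the mix and 6.75, 7.51 and 7.75 in its clones a, b and c, against 7.57, 7.63 and 7.46 with the HA vector, so that clone a was lowest and clone c highest. Probe set 228948_at was 5.62, 6.15, 5.73 and 5.89 in the same lines, against 5.32, 5.64 and 5.62. Probe set 206114_at was 3.85, 5.59, 5.24 and 6.27, against 5.30, 5.37 and 5.35. Clone a was thus below all vector arrays for the first of these probe sets and above them for the others, and the fitted differences were -0.16, 0.32 and -0.11 with adjusted p of 0.666, 0.364 and 0.891.

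EPHA2, a class A receptor of epithelial cells, was read by 1 probe set. It was 7.23 in the HOXD13 mix and 7.43, 7.83 and 6.04 in its clones a, b and c, against 6.63, 6.70 and 6.81 with the V5 vector. The first 3 lines were above all vector arrays and clone c was below them all, and the difference of 0.42 (SE 0.31) was not called (adjusted p = 0.442). In the HOXD9 lines it was 6.41, 6.58, 6.24 and 6.92, against 6.17, 6.15 and 6.11 with the HA vector. All 4 HOXD9 lines were above all 3 vector arrays, by a fitted 0.40 that was not called (adjusted p = 0.443). It was the only 1 of the 12 with this order in HOXD9, against 18% of all probe sets.

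**Figure D2:**
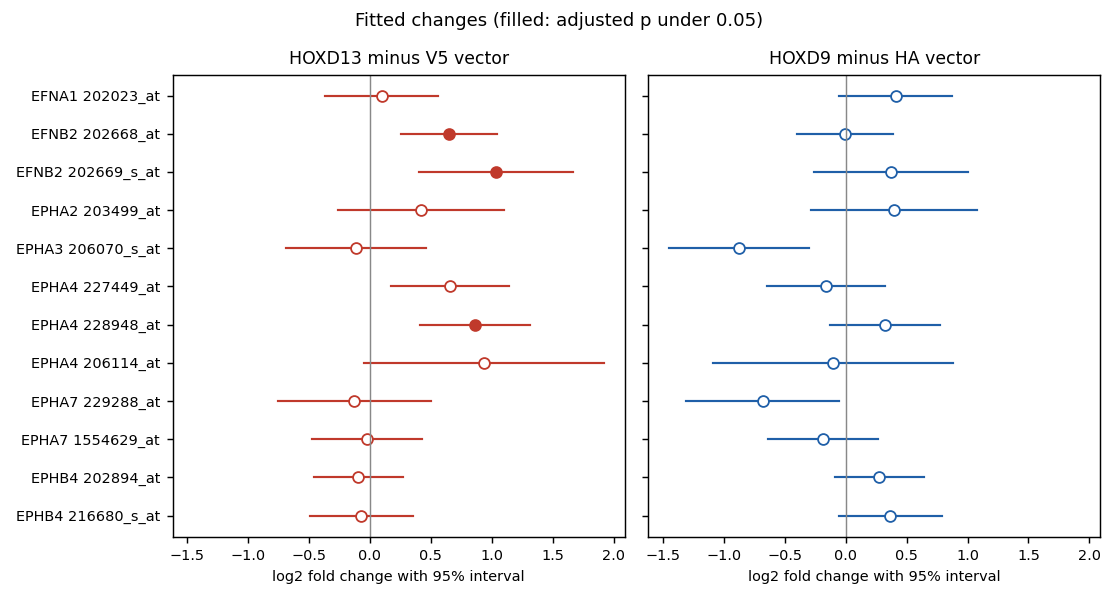
Fitted log2 fold change (x axis) with its 95% interval for the 12 tested ephrin and Eph receptor probe sets (y axis), HOXD13 against the V5 vector on the left and HOXD9 against the HA vector on the right. Filled points passed an adjusted p of 0.05, which both EFNB2 probe sets and EPHA4 228948_at did for HOXD13 and none did for HOXD9.

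The upstream sequences of these 3 genes are shown because EFNB2, EPHA4 and EPHA2 stood higher in the same 3 HOXD13 lines. They are the 250 bases before the RefSeq transcription start on GRCh38.p14, of genes on the minus strand, read 5′ to 3′, and capitals mark the letters TAAT, the core of the sites that homeodomains bind. EFNB2 lies at chr13:106535663-106535912, EPHA4 at chr2:221574203-221574452 for the first of 2 listed starts, and EPHA2 at chr1:16156070-16156319.
EFNB2: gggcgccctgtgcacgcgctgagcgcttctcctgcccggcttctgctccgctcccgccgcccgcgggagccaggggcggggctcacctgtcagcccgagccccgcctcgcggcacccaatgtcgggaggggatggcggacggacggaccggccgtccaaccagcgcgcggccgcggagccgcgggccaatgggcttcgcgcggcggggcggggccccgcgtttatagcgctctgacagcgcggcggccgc
EPHA4: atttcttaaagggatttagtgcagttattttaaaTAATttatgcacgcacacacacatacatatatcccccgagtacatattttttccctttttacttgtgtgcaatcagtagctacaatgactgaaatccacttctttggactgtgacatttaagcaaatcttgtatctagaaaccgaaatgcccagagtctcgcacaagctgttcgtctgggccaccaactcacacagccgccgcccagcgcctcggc
EPHA2: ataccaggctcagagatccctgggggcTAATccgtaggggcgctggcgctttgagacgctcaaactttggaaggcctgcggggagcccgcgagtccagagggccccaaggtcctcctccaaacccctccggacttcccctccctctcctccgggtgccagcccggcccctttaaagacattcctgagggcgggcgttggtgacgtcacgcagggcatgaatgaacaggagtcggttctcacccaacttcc
The EFNB2 window, 78.4% G and C, holds no TAAT on either strand. The EPHA4 window, 43.2% G and C, holds 1 that begins 216 bases before the start, and the EPHA2 window, 63.2% G and C, holds 1 that begins 223 bases before it. The window of the second EPHA4 start holds none. Among the other genes, the first of 3 listed EPHA7 starts has 2 TAAT in its window and EPHB4 has 1. Neither gene was called for HOXD13. EFNA1 was also above the V5 vector arrays in the same 3 HOXD13 lines, with smaller shifts, and its window holds none. Of 35116 RefSeq promoter windows of this length, 47.4% hold TAAT on either strand. The longer letters CAATAAA and TCGTAAA, forms reported for HOXD13 and its relatives, stand in 3.66% and 0.444% of those windows and in none of the windows of the 9 genes with a probe set. Neither of the longer motifs contains TAAT on either strand. These letters are a description of the window and not of binding.

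EPHA3 and EPHA7, class A receptors of the developing nervous system and limb, stood lower in the HOXD9 lines than with the HA vector, by differences that did not pass the test. EPHA3 206070_s_at was 7.14 in the HOXD9 mix and 6.24, 7.37 and 5.99 in its clones a, b and c, against 7.56, 7.57 and 7.54 with the HA vector. All 4 lines were below all 3 vector arrays, clones a and c by over 1 and the mix and clone b by less. The difference of -0.88 (SE 0.26, 95% interval -1.45 to -0.30) had an unadjusted p of 0.00563 and was not called after adjustment (adjusted p = 0.176). Without HOXD9 clones a and c it was -0.31 (adjusted p = 0.455).

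EPHA7 229288_at was 6.24, 6.40, 6.31 and 5.02 in the HOXD9 mix and clones a, b and c, against 6.63, 6.77 and 6.61 with the HA vector. All 4 lines were again below all vector arrays, with clone c the lowest. The difference of -0.68 (SE 0.29) was not called (adjusted p = 0.222), and without clone c it was -0.35 (adjusted p = 0.425). EPHA3 and EPHA7 gave the 2 of 12 probe sets with all HOXD9 lines below all HA vector arrays, an order that 14.2% of all probe sets showed. A further EPHA7 probe set, 1554629_at, was 4.45, 4.16, 4.35 and 4.49 in the HOXD9 lines and 4.74, 4.47 and 4.43 with the HA vector, with overlapping groups and a difference of -0.19 (adjusted p = 0.587). It passed the filter only through the arrays of the V5 tag, so its HOXD9 test rests on values below the cut.

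Neither receptor was called for HOXD13. EPHA3 206070_s_at was 8.05, 8.26, 8.06 and 8.37 in the HOXD13 mix and clones a, b and c, against 8.30, 8.30 and 8.29 with the V5 vector, a difference of -0.11 (95% interval -0.69 to 0.46, adjusted p = 0.841). The SE behind this interval, 0.26, takes in the spread of the HOXD9 lines, and it was 0.10 with the arrays of the V5 tag alone. EPHA7 229288_at was 7.30, 7.12, 7.10 and 7.93, against 7.44, 7.50 and 7.54, and EPHA7 1554629_at was 5.55, 5.08, 5.11 and 6.12, against 5.41, 5.52 and 5.52. Clone c was above all vector arrays and clones a and b were below them for both EPHA7 probe sets, and the fitted differences were -0.13 (95% interval -0.76 to 0.50, adjusted p = 0.838) and -0.02 (95% interval -0.47 to 0.43, adjusted p = 0.967). Of the probe sets below the filter, EPHA3 211164_at and 206071_s_at and EPHA7 206852_at stayed between 2.27 and 2.53, and EPHA7 238533_at ranged from 2.75 to 4.89.

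EPHB4, the receptor that binds EFNB2 and marks veins, had 2 tested probe sets, and neither was called for either HOX gene. Probe set 202894_at was 8.76, 8.74, 8.78 and 8.22 in the HOXD13 mix and clones a, b and c, against 8.66, 8.61 and 8.89 with the V5 vector. Clone c alone was below the vector arrays, and the difference was -0.09 (95% interval -0.46 to 0.27, adjusted p = 0.787). In the HOXD9 lines it was 8.38, 8.62, 8.21 and 8.85, against 8.26, 8.28 and 8.17 with the HA vector, with the mix and clones a and c above the vector arrays and a difference of 0.28 (adjusted p = 0.338). Probe set 216680_s_at was 4.89, 5.65, 5.67 and 5.45 in the HOXD13 lines and 5.24, 5.56 and 5.65 with the V5 vector, with overlapping groups (difference -0.07, adjusted p = 0.875). It was 5.67, 5.95, 5.37 and 5.81 in the HOXD9 lines and 5.17, 5.48 and 5.35 with the HA vector (difference 0.37, adjusted p = 0.286).

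The lines of 1 HOX gene were not alike. Set against the mean of its own vector arrays, the median shift of the 12 probe sets was 0.33 in the HOXD13 mix and 0.47, 0.62 and 0.04 in its clones a, b and c, where the medians over all probe sets were -0.02, -0.04, -0.05 and -0.08. In the HOXD9 mix and clones a, b and c the member medians were -0.0047, 0.31, -0.03 and 0.42, and those of all probe sets 0.01, 0.10, -0.02 and 0.14. Across the whole array, 344, 752, 1039 and 333 genes lay over 1 from the vector mean in the HOXD13 mix and clones a, b and c, and 5, 619, 23 and 1439 in the HOXD9 lines in the same order. HOXD9 clones a and c, the lines with the large EPHA3 shifts, were thus also the HOXD9 lines with the most genes far from the vector.

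**Figure D3:**
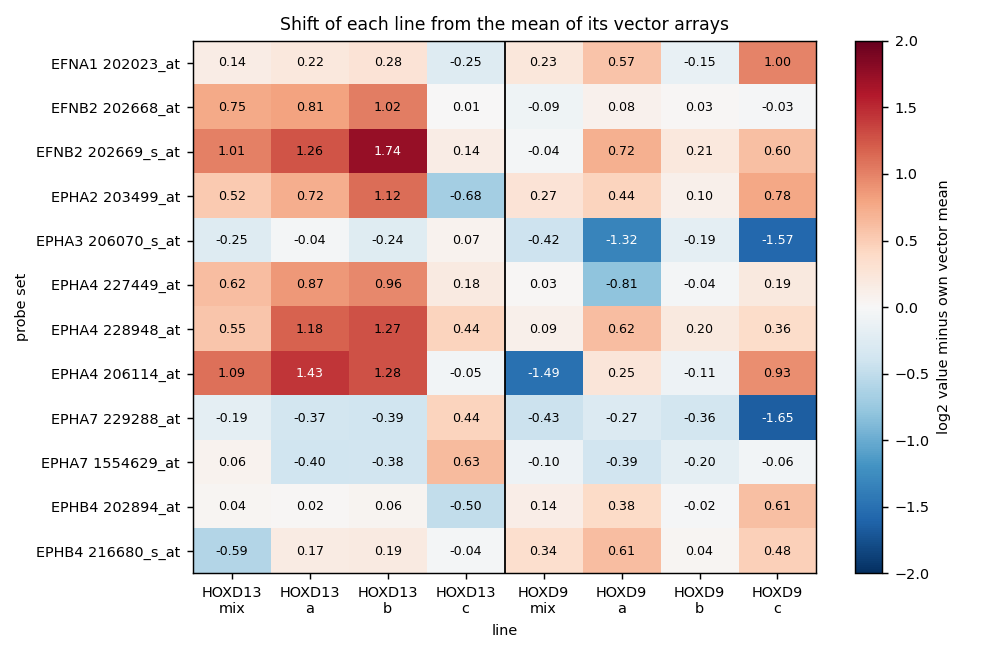
Difference of each HOX line (x axis) from the mean of its own vector arrays, on the log2 scale, for the 12 tested probe sets (y axis), with red for higher and blue for lower. EFNB2, EPHA2 and EPHA4 are red in the HOXD13 mix and clones a and b, and EPHA3 and EPHA7 229288_at are blue in all 4 HOXD9 lines.

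HOXD13 clone c carried the largest ACTB and GAPDH differences, above those of the V5 vector arrays. The mix and clones a and b lay below the V5 vector arrays in both. Clone c also had the lowest EFNB2 and EPHA2 values of the HOXD13 lines. The part of RNA quality in the values of all these lines was not tested. With clone c left out, 6 of the 12 probe sets were called higher for HOXD13, where 17.3% of all probe sets were called higher and 15.5% lower. EFNB2 202668_at then had a log2 fold change of 0.86 (SE 0.09, 1.82-fold, adjusted p = 3.77e-05) and 202669_s_at one of 1.34 (adjusted p = 0.000462). EPHA2 had one of 0.79 (adjusted p = 0.00415), and the EPHA4 probe sets 228948_at, 227449_at and 206114_at had 1.0, 0.82 and 1.27 (adjusted p = 0.00199, 0.00871 and 0.0360). No member was called lower in that fit. Clone c was the lowest HOXD13 line for each of these 6 probe sets, so leaving it out raises their differences by itself. The fit without clone c was 1 of those that left out each array in turn. It is singled out here with the values known. With HOXD13 clones b and c and HOXD9 clone a left out, the 3 arrays whose ACTB difference stood apart, 5 of the 12 were called higher, against 15.1% of all probe sets. The set of 3 arrays was chosen with the values known.

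The 3 calls made with all arrays depended on single arrays. The count was 0 without any 1 of the 3 V5 vector arrays and without HOXD13 clone a or b. It was 1 without the HOXD13 mix, without the HOXD9 mix or clone b and without any 1 of the 3 HA vector arrays, and 3 or 4 without HOXD9 clone c or a. Arrays of the HA tag enter these tests only through the shared spread and its degrees of freedom. Leaving 1 of them out does not change a HOXD13 fold change. The adjusted p of EFNB2 202668_at ranged from 3.77e-05 without HOXD13 clone c to 0.157 without V5 vector array 3, and it stayed under 0.05 in 3 of the 14 fits. That of EFNB2 202669_s_at ranged from 0.000462 to 0.152, with 3 of 14 under 0.05, and that of EPHA4 228948_at from 0.00199 to 0.122, with 9 of 14 under 0.05. The fold changes kept their sign in each of these fits, at 0.53 to 0.86 for EFNB2 202668_at, 0.81 to 1.34 for 202669_s_at and 0.72 to 1.0 for EPHA4 228948_at. Averaging the tested probe sets of a gene gave EFNB2 a difference of 0.84 (adjusted p = 0.0327) and EPHA4 one of 0.82 (adjusted p = 0.0409). For EFNB2 202669_s_at and for EPHA4 228948_at and 227449_at all 4 HOXD13 lines were above all V5 vector arrays, which was so for 8.6% of all probe sets.

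**Figure D4:**
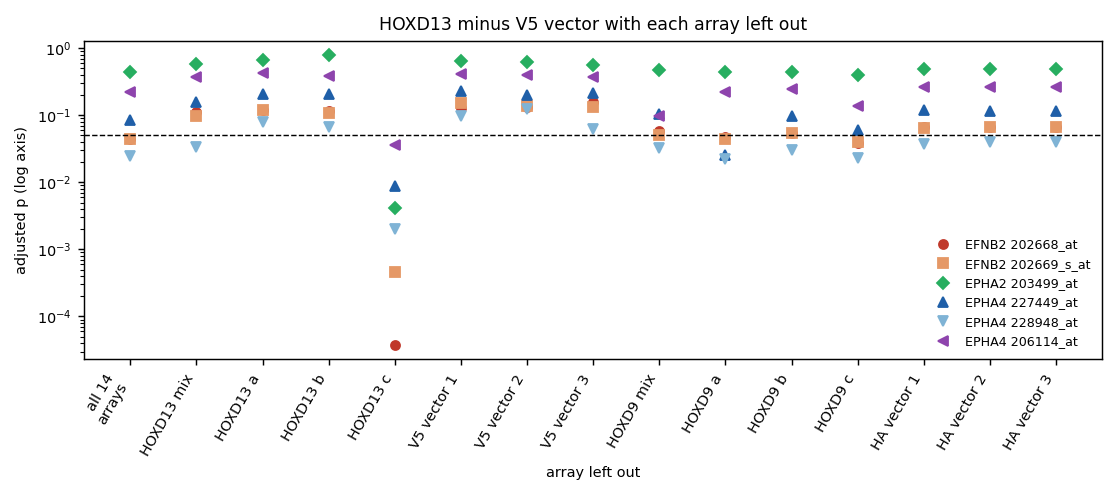
Adjusted p of limma's test of HOXD13 against the V5 vector (y axis, log scale) for the 6 ephrin and Eph receptor probe sets called without HOXD13 clone c, with all 14 arrays and with each array left out in turn (x axis). The dashed line marks 0.05, and the lowest values of all 6 probe sets are those without HOXD13 clone c.

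Whether HOXD13 and HOXD9 lines differed in their change from their own vector was tested as a difference of effects. None of the 12 probe sets was called, where 6.56% of all probe sets were called in either direction. At an unadjusted p under 0.05, 2 of the 12 passed, against 23.1% of all probe sets. The difference, HOXD13 effect minus HOXD9 effect, was above 0 for 9 probe sets and below 0 for 3, with a range from -0.44 for EPHB4 216680_s_at (adjusted p = 0.369) to 1.04 for EPHA4 206114_at (adjusted p = 0.355). Several of the 9 read the same gene. The median of the 12 was 0.55, against -8.1e-05 over all probe sets. The lowest adjusted p-values were those of EPHA4 227449_at, with 0.82 (adjusted p = 0.143), EFNB2 202668_at, with 0.65 (adjusted p = 0.151), and EPHA3, with 0.76 (adjusted p = 0.243). Without HOXD13 clone c, 3 of 12 were called with the larger value in HOXD13, where 7.69% of all probe sets were. These were EFNB2 202668_at with 0.86 (adjusted p = 0.00104), EFNB2 202669_s_at with 0.96 (adjusted p = 0.0346) and EPHA4 227449_at with 0.98 (adjusted p = 0.0299). In that fit 3.97% of all probe sets were called for HOXD9 and none of the 12, with EPHA3 at an adjusted p of 0.0628.

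Of the other family members, 4 of 8 further Eph receptors and all 4 further ephrins had a probe set past the filter, and none was called for either HOX gene, nor did any reach an unadjusted p under 0.05. Of 10349 genes, each read by its brightest probe set, 2.45% were called higher and 7.03% lower for HOXD13 and 0.00966% were called for HOXD9, and 26.5% and 23% had an unadjusted p under 0.05. The median log2 fold change for HOXD13 was 0.20 over the 4 receptors and -0.12 over the 4 ephrins, against -0.03 over all these genes. EPHB3, a class B receptor of intestinal crypts, was 6.89, 7.45, 7.23 and 5.58 in the HOXD13 mix and clones a, b and c, against 6.29, 6.03 and 6.15 with the V5 vector. It was above the vector arrays in the same 3 lines as EPHA2 and below them in clone c, by a fitted 0.63 (adjusted p = 0.264). Without clone c, EPHB3 had 1.03 (adjusted p = 0.000574) and EPHA8 had 0.61 (adjusted p = 0.00610), in a fit that called 18.4% of all genes higher. EFNA5, a class A ligand that guides retinal axons, was read by the brightest of its 3 probe sets past the filter. It had values of 8.88 to 9.03 in the HOXD13 lines, against 9.04 to 9.12 with the V5 vector. The difference of -0.14 was not called (adjusted p = 0.331).

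Of 29 tested genes of forward signalling, the adaptors, kinases and GTPase regulators that act after an Eph receptor, 1 rose with HOXD13 and none fell, where 2.45% of all genes were called higher and 7.03% lower, and the median was -0.01. It was VAV3, an exchange factor of the Vav family, which joins activated Eph receptors. VAV3 was 8.07, 7.88, 8.10 and 8.13 in the HOXD13 lines, against 7.14, 7.12 and 7.08 with the V5 vector. The groups did not overlap and clone c was the highest line, with a log2 fold change of 0.93 (SE 0.14, adjusted p = 0.00265). Of 9 tested genes of reverse signalling through B ephrins, 1 fell and none rose. It was DVL2, a Dishevelled scaffold, at 8.38, 8.23, 8.41 and 8.53 against 8.98, 8.92 and 8.92, a log2 fold change of -0.55 (adjusted p = 0.0202). None of 15 tested genes of shedding, turnover and dephosphorylation was called for HOXD13. In HOXD9 lines none of these lists held a call, with 4 of 29, 4 of 9 and 6 of 15 genes at an unadjusted p under 0.05, against 23% of all genes. For the difference of effects the calls in these 3 lists were VAV3, NCK1 and PIK3R1 with the larger value in HOXD13 and DVL2 and APH1A with the smaller, where 1.03% and 6.89% of all genes were called. Without HOXD13 clone c the calls for HOXD13 were 7 higher and 3 lower of the 29, 1 and 1 of the 9, and 1 and 0 of the 15, where 18.4% of all genes were called higher and 16.1% lower. In that fit 2 of the 15, APH1A and PSENEN of the gamma-secretase complex, were called higher for HOXD9, as were 3.74% of all genes.

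Of 21 tested receptors and ligands of other axon guidance families, 4 rose and 1 fell with HOXD13, against the 2.45% and 7.03% of all genes, and none was called for HOXD9, where 2 of 21 had an unadjusted p under 0.05, against 23% of all genes. SEMA3C, a secreted semaphorin, was 6.33, 6.65, 6.75 and 6.26 in the HOXD13 mix and clones a, b and c, against 4.67, 5.20 and 4.93 with the V5 vector, a difference of 1.57 (SE 0.21, adjusted p = 0.00173). ROBO2, a Slit receptor, was 5.60, 5.91, 6.07 and 5.65 against 4.92, 4.9 and 4.73, a difference of 0.96 (adjusted p = 0.00211). For both genes all 4 HOXD13 lines, clone c included, were above all vector arrays, which differs from the order of lines for EPHA2. ROBO2 reached the filter value of 5 only in the HOXD13 lines, and SEMA3C only there and on V5 vector array 2. Both were thus tested only through the group where they were high, so the count of 4 leans on the filter. In the HOXD9 lines and with the HA vector both lay below 5, so their HOXD9 tests say little. The semaphorins SEMA6A and SEMA6D rose by 1.05 and 0.53 (adjusted p = 0.0228 and 0.0356), and PLXNB2, a plexin that binds class 4 semaphorins, fell by 0.74 on the log2 scale (adjusted p = 0.00241).

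The genes most like EFNB2 in their pattern were sought by the root mean square difference of their shifts from EFNB2 202668_at over the 8 HOX lines, among 10348 genes. The 5 closest were MAP1LC3B, an autophagosome protein, at 0.0895, SPEN, a transcriptional repressor that binds RNA, at 0.0961, LLPH at 0.104, ARHGAP24, a GTPase-activating protein for Rac, at 0.108 and USP42, a deubiquitinase, at 0.109. Each had shifts of 0.60 to 1.02 in the HOXD13 mix and clones a and b and of -0.06 to 0.14 in clone c. Among the listed genes EPHA4 was the nearest, at 0.338 and rank 738, followed by EPHA2 at 0.428 and rank 1610. EPHA7 and EPHA3 were far down, at ranks 8923 and 9070. The 8 shifts share their vector arrays within a tag, so this is a description of these lines.

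Of the 6 tested HEK293 markers, none was called for HOXD13 with all arrays, and 4 (NEFL, CDH2, KRT8 and INA) were called higher without clone c, where 18.4% of all genes were. The summed log2 level of the 8 HEK293 markers with a probe set ranged from 71.9 to 78.0 in the HOXD13 lines and from 74.7 to 74.9 on the V5 vector arrays, and from 71.5 to 73.2 in the HOXD9 lines and 71.6 to 71.8 on the HA vector arrays. The summed level of the 8 endothelial markers, none past the filter, was 19.3 to 19.8 in the HOXD13 lines and 19.6 to 19.9 with the V5 vector, and 19.3 to 19.9 in the HOXD9 lines and 19.6 to 19.7 with the HA vector. The part of the HEK293 marker levels in the EFNB2 and EPHA4 values was not tested.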

How the data were processed

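Total RNA of 14 samples was hybridised to 14 Affymetrix arrays. The deposited values are 1 log2 expression value per probe set, made by the authors with GCRMA per the submitters' processing notes. Its version and the build of the genome were not given in the sources used here. They run from 1.83 to 15.5. The sorted values were identical to within 0.00102 among the 7 HA arrays and to within 0.00195 among the 7 V5 arrays, with 75th percentiles of 6.27 and 7.02, so the tags were normalized apart. The precision is limited by the number of arrays, which have no read depth.

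From these values a model of 4 group means was fitted by limma 3.58.1 (lmFit, eBayes) under R 4.3.3 (10 residual degrees of freedom, prior 3.01), on the 19816 probe sets with a value of at least 5 on at least 3 arrays, with 62 control probe sets left out. Tests were two-sided, p-values were adjusted by Benjamini-Hochberg over all of them, and adjusted p-values in the text are limma's. Symbols came from the platform annotation of 2016, in which 41097 probe sets had 1 symbol, 1801 several and 11777 none listed, and 41043 matched RefSeq. Gene lists were read by the brightest probe set of a gene, with the p-values adjusted over all 19816 probe sets. Of 144 list entries 136 had a named probe set. The values on every array are given for each tested member, list genes were named where they were called, with EPHB3, EPHA8 and EFNA5 named after their values were seen, and the 5 genes nearest EFNB2 were named by the smallest difference over 8 lines. The members and lists were chosen with earlier results of these data known. The code was tested on simulated data. Promoter windows are RefSeq's on GRCh38.p14. Sequences were read and figures drawn with Python 3.11.15. Alternatives changed the filter, the arrays in the fit, the weights, the centring, the variance model and the choice of probe set, and left out each array in turn.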

Additional observations from a re-analysis of the deposited data

Results flagged for a closer look

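In 2 of the 24 groups of 4 lines examined (12 tested probe sets in the HOXD13 and in the HOXD9 lines), 1 line stood apart from the others by Dixon's criterion, a gap to the nearest line that is large for the group's range. Chance alone gives such a gap in about 1 in 20 groups. EPHB4 202894_at was 8.22 in HOXD13 clone c, against 8.74 to 8.78 in the other HOXD13 lines (gap 0.934 of the range). EPHA7 229288_at was 5.02 in HOXD9 clone c, against 6.24 to 6.40 in the other HOXD9 lines (gap 0.887 of the range).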

How the results depend on the processing

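No sign turned in any alternative for a called probe set. The count of 3 ephrin and Eph receptor probe sets called for HOXD13 became 0 with the arrays of the own tag only, 0 of 20 with no filter, 1 of 7 genes by the brightest probe set, 5 without the 3 arrays of deviating ACTB difference and 0 to 6 with 1 array left out. For the difference of effects it was 3 without the ACTB arrays and 0 to 3 with 1 array left out. For HOXD9 it was 0 throughout. The count over all probe sets for HOXD13, 1721, became 2898 with array weights, 1112 with no filter, 1101 genes by the brightest probe set, 1144 genes by the mean of probe sets, 5761 without the ACTB arrays, 3948 without HOXD9 clones a and c and 371 to 6496 with 1 array left out. For HOXD9, 6 became 1 with the own tag, 11 with no filter, 10 with a filter at 7, 1 by the brightest probe set, 2 by the mean, 167 without the ACTB arrays and 1 to 787 with 1 array left out. For the difference of effects, 1299 became 735, 3444 and 340 to 3688 with no filter, without the ACTB arrays and with 1 array left out. The cause was not tested. The sets without the ACTB arrays and without HOXD9 clones a and c were chosen after seeing the data. No paired analysis was possible because the HOX lines carry names and no replicate numbers, and vector arrays of the 2 tags are not compared with each other. Low signal limits the 8 untested probe sets.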
